A study of Mus musculus with 38 samples.

Results

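Peaks were examined at the genes of 3 growth factor receptors of blood progenitors, Kit, Flt3 and Csf1r. A peak was taken when its centre lay in the gene body (mm10) or within 100 kb of either end, in any of 17 deposited lists. This gave 273 of 359759 peaks: 53 at Kit, 129 at Flt3 and 91 at Csf1r. Each list held the peaks that chromatin immunoprecipitation with sequencing (ChIP-seq) found reproducibly in 2 replicates. The cells were Cas9-LP, a lymphoid progenitor (LP) line grown from fetal liver progenitors of mice that lack Ebf1, which B lineage entry needs, and carry Cas9 at Rosa26. LP cells stayed on OP9 stroma without Notch ligand, Phase 1 cells had been put on OP9-DLL4, a stroma that displays the ligand DLL4 to Notch, and Phase 2 was a later stage. The antibodies bound RUNX1, p300 (an acetyltransferase), Med12 (a subunit of Mediator), CTCF or Notch1, whose released intracellular part is written Notch1-IC. Guides were a control (sgCont, against luciferase) or pools against Ctcf, Cbfb or Med12 (sgCTCF, sgCbfb, sgMed12). The peak lists offer no check of what these guides did to their targets. The study shows immunoblots of Cbfb, CTCF and Med12 in guide-treated Cas9-LP cells, and reports loss of the Cbfb protein. All groups lacked Ebf1, carried Cas9 and grew in medium with SCF, Flt3L and IL-7. The labels name 1 line, so differences between stages hold for that line.

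Kit, Flt3 and Csf1r are class III receptor tyrosine kinases, which pair up when a ligand binds and then phosphorylate tyrosines that adaptors and kinases dock on. Kit binds SCF (the product of Kitl) and serves stem cells, mast cells and the earliest thymic progenitors. Flt3 binds Flt3L and marks lymphoid-primed and dendritic cell progenitors, and its expression falls as thymocytes enter the T lineage. Csf1r binds CSF1 and IL-34 and is the receptor on which monocytes and macrophages depend. RUNX1 acts with Cbfb as a DNA-binding pair, Mediator links such factors to RNA polymerase, p300 acetylates histones at active enhancers, and CTCF anchors chromatin loops.

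Overlapping peaks of all lists were merged to 72 elements, named by their distance from the start of the gene, positive into the gene and beyond. The lines show 200 bases of reference sequence (GRCm38) around the centre of the RUNX1 site of 3 elements on which the results turn, and the 250 bases upstream of Flt3, written along the strand of each gene. Capitals mark exact matches, on either strand, to RUNX strings (TGTGGTT or TGCGGTT) or the RBPJ string GTGGGAA. The element of Kit at +155.9 kb moved up furthest in the RUNX1 list among the Kit elements shared by LP and Phase 1, and it held an RBPJ string and no RUNX string. The element of Flt3 at +33.9 kb had the highest LP scores of RUNX1, Med12 and p300 at any member, and it held both forms of the RUNX string. The element of Flt3 at -26.2 kb carried the highest-scored Notch1-IC peak among the members (42.1), and it held an RBPJ string. That peak was listed in LP cells, without Notch ligand, and in neither list made after Notch stimulation. The LP Notch1-IC peak of Flt3 at +33.9 kb scored 41.9, and that element held no RBPJ string. The bases before the start of Flt3, from RefSeq (GRCm38.p6), held 1 RUNX string.
Kit +155.9 kb, chr5:75730747-75730946, plus strand: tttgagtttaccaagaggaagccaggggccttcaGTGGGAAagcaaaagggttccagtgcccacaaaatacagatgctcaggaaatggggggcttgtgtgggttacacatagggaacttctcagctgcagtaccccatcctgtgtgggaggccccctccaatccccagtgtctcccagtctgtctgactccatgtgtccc
Flt3 +33.9 kb, chr5:147366471-147366670, minus strand: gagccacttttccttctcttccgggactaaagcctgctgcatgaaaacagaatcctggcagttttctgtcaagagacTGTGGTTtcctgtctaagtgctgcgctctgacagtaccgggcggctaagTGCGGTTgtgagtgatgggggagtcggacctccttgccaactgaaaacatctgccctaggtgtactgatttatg
Flt3 -26.2 kb, chr5:147426533-147426732, minus strand: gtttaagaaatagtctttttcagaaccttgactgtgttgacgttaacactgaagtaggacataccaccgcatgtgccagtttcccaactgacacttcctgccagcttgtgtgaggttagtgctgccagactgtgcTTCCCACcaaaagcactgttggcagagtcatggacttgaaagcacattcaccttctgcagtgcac
Flt3 upstream, chr5:147400490-147400739, minus strand: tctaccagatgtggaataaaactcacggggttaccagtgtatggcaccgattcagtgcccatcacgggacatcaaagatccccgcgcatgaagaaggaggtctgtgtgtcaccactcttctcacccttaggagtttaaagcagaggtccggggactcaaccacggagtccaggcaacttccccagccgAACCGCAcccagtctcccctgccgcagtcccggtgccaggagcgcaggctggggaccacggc

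The scores printed here are the normalized peak scores that the authors deposited, with no list holding a score under 15. Their scale was not stated, so scores of different lists stand side by side and are not compared. A peak's place in its own list is used instead, given as the share of that list with a score as high or higher, so that a small share is a high place. Lists combined both replicates, the reads behind them were not used here, and depth is therefore unknown. Peaks show where a protein was found on DNA and do not measure expression of the receptors. No test was run, and the 95% Wilson intervals cover counting error only.

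The first comparison asked which sites were gained or left when LP cells met the Notch ligand. Around the 3 genes, 23 LP peaks and 35 Phase 1 peaks of RUNX1 were found, with 22 shared. Thus 13 of 35 Phase 1 peaks (37.1%, interval 23.2 to 53.7) had no LP partner, beside 30.7% of the whole Phase 1 RUNX1 list. Only 1 of 23 LP peaks (4.35%, 0.772 to 21) had no Phase 1 partner, beside 16.8% of the LP list. The gains were unequal: 6 of 10 Phase 1 RUNX1 peaks at Kit were specific to that stage, 3 of 13 at Flt3 and 4 of 12 at Csf1r. Neither Kit (0 of 4) nor Flt3 (0 of 10) had an LP-specific RUNX1 peak, and Csf1r had the single one. The intervals of the 3 genes overlapped widely, at 31.3 to 83.2%, 8.18 to 50.3% and 13.8 to 60.9%.

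Med12 peaks were gained in the same direction, and the p300 shares lay close to those of the whole lists. Med12 had 17 peaks in LP and 33 in Phase 1, of which 17 of 33 were Phase 1-specific (51.5%, 35.2 to 67.5) beside 38.2% of the list. The reverse was seen for 1 of 17 LP Med12 peaks (5.88%, 1.05 to 27.0) beside 19.5%. For p300, 18 of 39 Phase 1 peaks were stage-specific (46.2%, 31.6 to 61.4) beside 41.6%, and 5 of 26 LP peaks (19.2%, 8.51 to 37.9) beside 20.7%. The Phase 1 lists were the longer ones, and when both p300 lists were cut to the same number of top-scored peaks, 25% of Phase 1 and 30.8% of LP p300 peaks were specific, beside 30.9% of either list. With lists of equal length, 25.9% of Phase 1 RUNX1 peaks and 40.9% of Phase 1 Med12 peaks were specific, beside 22.3% and 27.4%, and so were 13% of LP RUNX1 and 23.5% of LP Med12 peaks, beside the same shares.

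**Figure D1:**
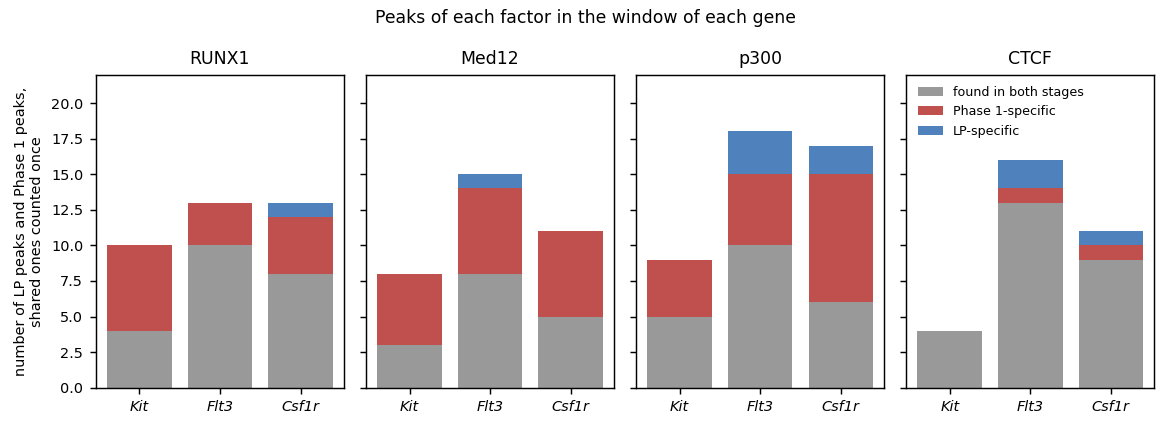
Bars give the number of RUNX1, Med12, p300 and CTCF peaks in the window of each gene, divided into peaks found in both stages (grey), Phase 1-specific (red) and LP-specific (blue). Kit went from 4 to 10 RUNX1 peaks with none lost, while its 4 CTCF peaks were found at both stages. These RUNX1 counts rest on low scores, 20.1 to 28.8 for the LP peaks and 17.2 to 33.9 for the Phase 1-specific ones.

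Kit lies on chromosome 5 at 75574916-75656722, plus strand, and no other protein-coding gene overlaps its window. Of its 13 elements, 8 held RUNX1, Med12 and p300. The start of Kit carried RUNX1 in LP (score 22.9) and in Phase 1 (31.6), as well as p300 (26.0 and 37.3). Med12 was listed there in Phase 1 (34.5) and not in LP. In intron 1, the +0.9 kb element held CTCF at both stages (110.0 and 117.2) and p300 at both (39.7 and 84.0), whereas RUNX1 (33.9) and Med12 (40.2) were listed in Phase 1 alone. The intronic element at +7.2 kb was a Phase 1 element for RUNX1 (17.2), Med12 (22.3) and p300 (24.8).

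The 3 highest-scored LP RUNX1 peaks of Kit were those at +155.9 kb (28.8), +120.5 kb (24.6) and the start. In Phase 1 they were +155.9 kb (97.0), +0.9 kb (33.9) and +169.8 kb (33.1). The +155.9 kb element, whose sequence is shown above, moved from the highest 71.5% to the highest 22.2% of the RUNX1 list. Its Med12 peak (20.4 in LP, 110.6 in Phase 1) moved from 87.9% to 12.2%, and its p300 peak (54.1 and 185.7) from 50.2% to 8.54%. The element at +120.5 kb went the other way, from 52.9% to 93.6% for Med12 and from 50.9% to 95.9% for p300. Neighbouring elements at +164.6 and +169.8 kb, gained all 3 proteins in Phase 1, with RUNX1 scores of 24.1 and 33.1, Med12 scores of 30.9 and 42.4 and p300 scores of 24.3 and 53.8. RUNX1 alone was listed in Phase 1 at +48.8 kb (20.1, intron 7) and +84.1 kb (17.4), and p300 alone at -29.9 kb (18.7). At +96.8 kb all 4 proteins were present at both stages.

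Flt3 lies on chromosome 5 at 147330741-147400489, minus strand, with Pdx1, Cdx2, Urad and Pan3 also in its window. It had 30 elements, of which 12 held RUNX1, Med12 and p300. In LP its highest RUNX1 peaks were +33.9 kb in intron 9 (381.3), the start at +0.1 kb (250.3) and +59.3 kb (235.1). In Phase 1 they were +33.9 kb (255.2), -26.2 kb (205.8) and the start (162.6). The +33.9 kb p300 peak of LP (1682.2) stood 4th of 36182 peaks, and the Med12 peak (557.0) stood 20th of 30020. The element at +59.3 kb was annotated to intron 20 and also reached an exon of Flt3 in GENCODE.

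By overlap of 1 bp or more, all 10 LP RUNX1 sites of Flt3 were found again in Phase 1. At +76.9 kb this overlap was slight, with peak centres at +76.76 kb in LP and +77.07 kb in Phase 1. The 3 highest LP RUNX1 sites of Flt3, all intragenic, sat lower in the Phase 1 lists, although these lists were longer. They were picked by their LP place, which left more room to fall than to rise. Sites of similar LP place at other genes were not compared. RUNX1 at +33.9 kb moved from 0.497% to 3.11%, at +59.3 kb from 3.45% to 10.6% and at the start from 2.78% to 9.28%. The same held for Med12 at these elements (0.0666 to 1.16%, 0.266 to 1.24% and 4.31 to 12.9%) and for p300 (0.0111 to 0.218%, 0.0995 to 0.289% and 3.04 to 8.84%). The upstream element at -26.2 kb moved the other way, from 8.87% to 5.45% for RUNX1, from 2.88% to 0.649% for Med12 and from 0.351% to 0.200% for p300. In all, 4 of 10 shared RUNX1 peaks at Flt3 stood higher in the Phase 1 list, against 3 of 4 at Kit and 6 of 8 at Csf1r, beside 61.8% of all shared RUNX1 peaks. For Med12 the counts were 3 of 8, 2 of 3 and 3 of 5, beside 58.9%. For p300 they were 4 of 10, 4 of 5 and 5 of 6, beside 64.4%.

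**Figure D2:**
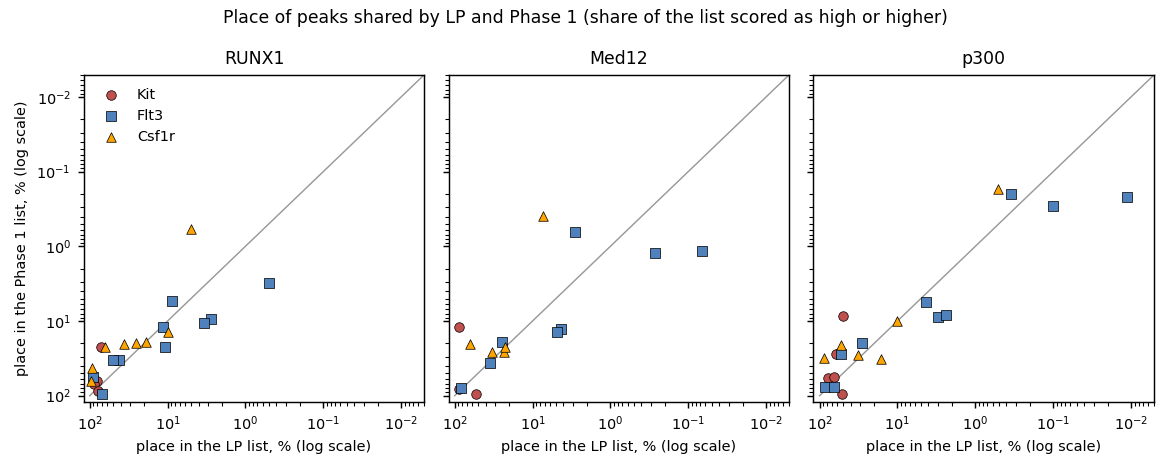
Each point is an element with a peak at both stages, placed by the share of the LP list (horizontal) and the Phase 1 list (vertical) that scored as high or higher, in % on log axes with high places to the right and top. Points under the diagonal stood lower in Phase 1: the Flt3 elements at +33.9 and +59.3 kb lie under it for all 3 proteins, and Csf1r at -52.8 kb lies above it.

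The highest-scored of the 3 Phase 1-specific RUNX1 peaks of Flt3 was +37.2 kb in intron 9, with RUNX1 at 133.2, Med12 at 128.7 and p300 at 148.2 in Phase 1 and no LP peak of any of them. The other 2 were at -48.2 kb (27.5) and -58.5 kb (18.3), both in Pan3. The 6 Phase 1-specific Med12 peaks were led by -29.6 kb, the Pan3 promoter (134.5), ahead of +37.2 kb and -48.2 kb (21.2). The Pan3 promoter had RUNX1 (144.3 and 140.7) and p300 (282.7 and 233.5) at both stages. After +37.2 kb the highest Phase 1-specific p300 peaks were -70.9 kb (23.8) and -92.9 kb (18.5). LP-specific peaks were Med12 at +68.7 kb (46.1), in the last intron of Flt3, and p300 at +107.2 kb (37.6), +80.6 kb (24.1) and -78.7 kb (18.4).

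Csf1r lies on chromosome 18 at 61100598-61132149, plus strand, with Slc6a7, Cdx1, Pdgfrb, Hmgxb3, Slc26a2 and Pde6a also in the window, and its RefSeq start lies 4.97 kb further in than the GENCODE start. No list had a peak over either start. The 3 highest RUNX1 peaks were the same elements at both stages, at -52.8 kb (208.5 and 402.0), -9.3 kb (154.1 and 129.4) and +76.5 kb (110.3 and 108.0). The first lies in intron 1 of Pdgfrb, another class III receptor, the second lies between genes and the third is the Hmgxb3 promoter. At -52.8 kb RUNX1 moved from 4.93% to 0.586%, Med12 from 7.37% to 0.388% and p300 from 0.517% to 0.173%. At -9.3 kb all 3 moved down, RUNX1 from 9.95% to 14.2%, Med12 from 23.1% to 25.6% and p300 from 16.2% to 32.1%.

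Within Csf1r itself, LP cells had a RUNX1 peak at the 3' end alone, at +30.9 kb (15.9), where it was still listed in Phase 1 (31.1) with Med12 (18.4) and p300 (16.9). Phase 1 added RUNX1 (35.2), Med12 (29.5) and p300 (26.3) at +18.9 kb in intron 11, Med12 (21.1) and p300 (34.5) at +6.4 kb in intron 2, and RUNX1 alone at +8.1 kb (15.4). Further Phase 1-specific RUNX1 peaks were +87.7 kb (25.6) and -89.1 kb (20.4). The other high Phase 1-specific peaks were Med12 at -90.2 kb (28.3) and +87.7 kb (26.8), and p300 at -28.5 kb (44.2) and -89.1 kb (31.4). The LP-specific RUNX1 peak was at -44.1 kb in Pdgfrb (25.9), with LP-specific p300 (29.6), and p300 at -79.9 kb (22.3) was LP-specific too. None of these elements inside Csf1r was in the upper 50% of its list, so the gains inside the gene were low-scored.

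**Figure D3:**
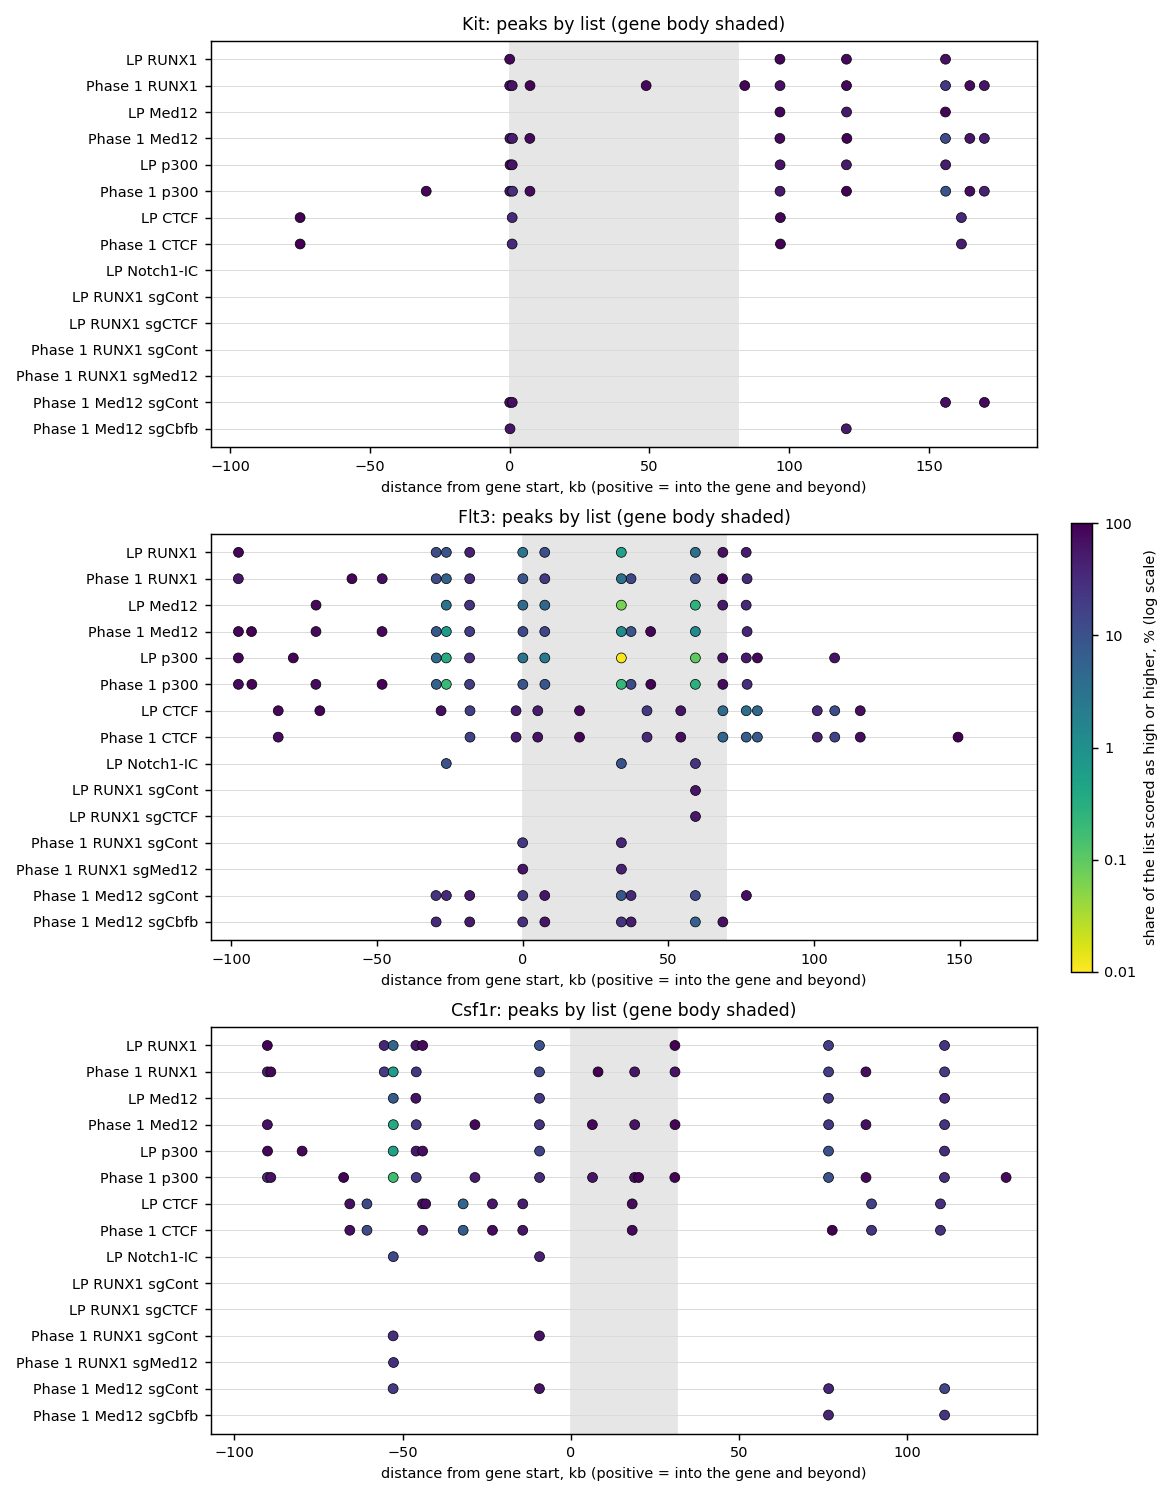
Points are peaks of 15 lists around each gene, by distance from the gene start in kb, with the gene body shaded and the colour giving the share of the list scored as high or higher (%, log scale). The 2 lists left out, those of Notch1-IC after Notch stimulation, had no peak here, and the brightest points are the Flt3 elements at +33.9 and +59.3 kb.

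The proteins mostly came together. In LP, 21 of 23 RUNX1 peaks overlapped p300 (91.3%, 73.2 to 97.6) beside 90.8% of the list, and 16 of 23 overlapped Med12 (69.6%, 49.1 to 84.4) beside 84.7%. In Phase 1, 30 of 35 overlapped p300 (85.7%, 70.6 to 93.7) beside 87.8%, and 28 of 35 overlapped Med12 (80.0%, 64.1 to 90) beside 86.0%. The 7 LP RUNX1 peaks without Med12 were the start of Kit, Flt3 at -29.6 and -97.5 kb, and Csf1r at -90.2, -55.5, -44.1 and +30.9 kb. Med12 was listed in Phase 1 at 5 of these, all but Csf1r at -55.5 kb, the Pdgfrb promoter, and at -44.1 kb.

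Of the 13 Phase 1-specific RUNX1 peaks, 8 overlapped both Med12 and p300 in Phase 1 (61.5%, 35.5 to 82.3) beside 68.1% of all such peaks. Only 1 of 13 lay where LP already had Med12 or p300 (7.69%, 1.37 to 33.3), beside 21.6%, and that was the p300 peak of Kit at +0.9 kb. The 5 others carried RUNX1 alone (Kit at +48.8 and +84.1 kb, Flt3 at -58.5 kb and Csf1r at +8.1 kb) or RUNX1 with p300 (Csf1r at -89.1 kb).

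Most CTCF peaks were shared by the stages. LP had 29 CTCF peaks and Phase 1 had 28, and 26 of these were shared. LP-specific peaks were 3 of 29 (10.3%, 3.58 to 26.4) beside 9.55%, and Phase 1-specific peaks 2 of 28 (7.14%, 1.98 to 22.6) beside 8.35%. All 4 at Kit were shared. The specific ones were Flt3 at -28.0 kb (32.6) and -69.6 kb (17.7) and Csf1r at -43.1 kb (29.2) in LP, and Flt3 at +149.5 kb (16.7) and Csf1r at +77.7 kb (16.9) in Phase 1. The shared ones reached scores of 285.8 at Flt3 +68.7 kb, 257.9 at Csf1r -32.0 kb and 117.2 at Kit +0.9 kb in Phase 1.

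RUNX1 overlapped CTCF at 5 of 23 LP peaks (21.7%, 9.66 to 41.9) beside 23.2% of the LP list, and at 5 of 35 Phase 1 peaks (14.3%, 6.26 to 29.4) beside 15.7%. The elements were Kit at +96.8 kb and Flt3 at +76.9, +68.7 and -18.1 kb at both stages, joined in Phase 1 by Kit at +0.9 kb. Csf1r at -44.1 kb was the only LP-specific RUNX1 peak of the members that overlapped LP CTCF (55.1). There CTCF was still listed in Phase 1 (65.1), while RUNX1 and p300 were not. The Flt3 element at +68.7 kb had RUNX1 at 30.0 in LP and 17 in Phase 1, with CTCF at 259.7 and 285.8.

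Notch1-IC, the active form of the receptor that DLL4 engages, had 5 peaks around the members, all in LP. They were Flt3 at -26.2 kb (42.1), +33.9 kb (41.9) and +59.3 kb (27.7), and Csf1r at -52.8 kb (36.2) and -9.3 kb (21.4). The 5 sat on LP RUNX1 peaks (100%, 56.6 to 100), beside 89.2% of the LP Notch1-IC list, and each was among the 3 highest LP RUNX1 peaks of its gene except Flt3 at -26.2 kb. None had a Phase 1 partner, beside 96.5% of the list without one. Kit had no Notch1-IC peak in any deposited list, and neither the Phase 1 nor the Phase 2 list had one at any member. The Notch1-IC lists held 1585 peaks in LP, which had no Notch ligand, 152 in Phase 1 and 352 in Phase 2 cells. For the stages after Notch stimulation, the study describes more reproducible peaks of this protein than the deposited lists hold. Whether any of those further peaks lay near the members was not tested, so the absence holds for the deposited lists alone. Only 18.9% of protein-coding genes had an LP peak in a window of this kind, and 2.84% and 4.68% had one in Phase 1 and Phase 2. The LP p300 peaks of Flt3 at +33.9, +59.3 and -26.2 kb stood at 0.0111%, 0.0995% and 0.351% of their list. Those of Csf1r at -52.8 and -9.3 kb stood at 0.517% and 16.2%. Whether the LP signal at these sites was binding of Notch1-IC was not tested.

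Med12 was also mapped in Phase 1 cells with sgCont or with sgCbfb, which targets the partner of RUNX proteins. The study describes the ChIP-seq of guide-treated cells as made from few cells and noisier. Of 17 sgCont peaks around the members, 7 had no sgCbfb partner (41.2%, 21.6 to 64.0) beside 32.2% of the list. In the reverse direction, 2 of 12 sgCbfb peaks had no sgCont partner (16.7%, 4.70 to 44.8) beside 28.6%. Absent peaks were 3 of 4 at Kit, 2 of 9 at Flt3 and 2 of 4 at Csf1r. With a minimum score of 30 in both lists, 2 of 10 sgCont peaks lacked a partner (20.0%), beside 24.4%.

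By gene, the peaks of Kit at +155.9 kb (25.1), +0.9 kb (24.9) and +169.8 kb (20.3) were listed with sgCont and not with sgCbfb. The Kit start was listed with both (27.7 and 28.9), and +120.5 kb with sgCbfb alone (34). In cells without guides, the 3 Kit elements not listed with sgCbfb had moved up or first appeared in Phase 1, and +120.5 kb had moved down. At Flt3, -26.2 kb (48.2) and an intergenic peak near Urad at +76.9 kb (24.2) were listed with sgCont alone, and +68.7 kb (26.3) with sgCbfb alone. The other 7 sgCont peaks of Flt3 were listed with both guides, among them 99.1 and 61.3 for +33.9 kb, 81.8 and 115.2 for +59.3 kb, and 45.8 and 36.6 for the Phase 1 element at +37.2 kb. At Csf1r, -52.8 kb (63.2) and -9.3 kb (28.3) were listed with sgCont alone, and the Hmgxb3 and Slc26a2 promoters with both.

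Promoter-annotated peaks and other peaks were also counted separately, since the whole lists differed between them. Among promoter-annotated sgCont peaks none of 5 was absent with sgCbfb (interval 0.0 to 43.4%), beside 7.67% of all such peaks. Among the others 7 of 12 were absent (58.3%, 32.0 to 80.7), beside 50.2%.

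**Figure D4:**
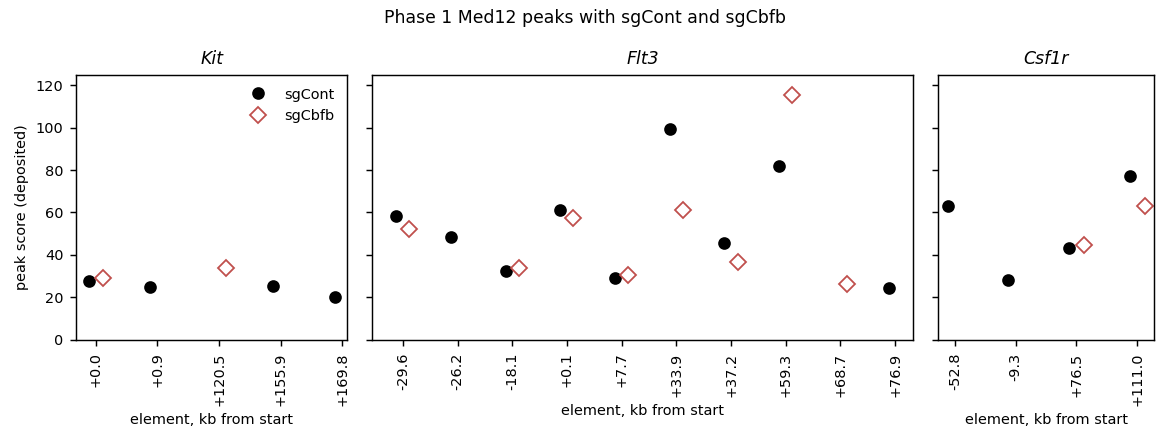
Deposited Med12 peak scores in Phase 1 cells are plotted for each element of each gene, as black circles for sgCont and open red diamonds for sgCbfb, and an element with 1 symbol was listed in 1 condition only. Kit at +155.9 kb, Flt3 at -26.2 kb and Csf1r at -52.8 kb show sgCont alone.

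RUNX1 in guide-treated cells gave short lists, and Kit had no peak in any of them. In LP, Flt3 at +59.3 kb was the single member peak, listed with sgCont (24.4) and with sgCTCF (25.1). Thus 0 of 1 sgCont peak was absent with sgCTCF, beside 40.9% of that list. In Phase 1, 1 of 4 sgCont peaks was absent with sgMed12 (25%, 4.56 to 69.9), beside 29.0%. Flt3 at +33.9 kb was listed with sgCont (28.4) and sgMed12 (22.2), the Flt3 start with both (33.6 and 19.3), and Csf1r at -52.8 kb with both (31.4 and 25.7). Csf1r at -9.3 kb was listed with sgCont alone (20.8). With a minimum score of 30 in both lists, the 2 remaining Phase 1 sgCont peaks had no partner, beside 55.1% of the list, because their sgMed12 peaks (19.3 and 25.7) fell under the minimum. With 1 and 4 peaks, these shares describe single sites.

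The sequences of the members' RUNX1 sites were searched on both strands for the strings named above and others, in the 200 bases around each centre. Of 36 sites (both stages merged), 8 held a RUNX string (22.2%, 11.7 to 38.1), beside 23.7% of 43766 RUNX1 sites. By gene it was 0 of 10 at Kit, 2 of 13 at Flt3 (+33.9 and -97.5 kb) and 6 of 13 at Csf1r, where the LP-specific site at -44.1 kb and the element at -9.3 kb were among them. The PU.1 string GAGGAAGT was in 4 of 36 (11.1%) beside 8.59%, at Kit +7.2 kb, Flt3 +37.2 and -97.5 kb and Csf1r +18.9 kb. All but Flt3 at -97.5 kb were Phase 1-specific RUNX1 sites, 3 of 13 (23.1%, 8.18 to 50.3) beside 7.11% of all such sites. Among sites of both stages it was 1 of 22 (4.55%, 0.807 to 21.8) beside 9.34%. Of the same 13 Phase 1-specific sites, 2 held a RUNX string (15.4%, 4.33 to 42.2) beside 29.8%. None of them held an RBPJ string, beside 7.06%.

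The RBPJ string, which the DNA-binding partner of Notch1-IC recognises, was in 3 of 36 (8.33%) beside 5.01%, at Kit +155.9 kb, Flt3 -26.2 kb and Csf1r -46.0 kb. Of these 3, only Flt3 at -26.2 kb had a Notch1-IC peak, in LP, and the other elements with a Notch1-IC peak held no RBPJ string. An AP-1 string (TGAGTCA or TGACTCA) was in 1 site, Kit at +84.1 kb, beside 8.19% of all sites. A GATA string (AGATAA) was in 1 site, Kit at +7.2 kb, beside 7.83%. The core consensus of CTCF was in none of the 36, beside 1.67%. In the 300 bases around the annotated start, Flt3 held a RUNX string, as did 6.75% of 32851 promoters, and Kit and Csf1r held none.

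The same windows were drawn around 21938 protein-coding genes, which places the members among other genes, although longer genes have longer windows. Kit gained 6 RUNX1 peaks between LP and Phase 1, and 2.37% of genes gained as many or more, with a median change of 0. The 6 Phase 1-specific RUNX1 peaks of Kit were low-scored, at 17.2 to 33.9 and places of 60.9% to 92.9%. These counts over genes were not repeated with lists of equal length or a higher minimum score. Flt3 and Csf1r gained 3 each, and 15.3% of genes gained 3 or more. For Med12, Kit and Flt3 gained 5 (6.64% of genes at least) and Csf1r gained 6 (3.75%), with a median of 1. For p300, Csf1r gained 7 (5.32%), Kit 4 (19.7%) and Flt3 2 (41.4%). In LP itself Kit had 4 RUNX1 peaks where the median gene had 5, Flt3 had 10 and Csf1r had 9.

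**Figure D5:**
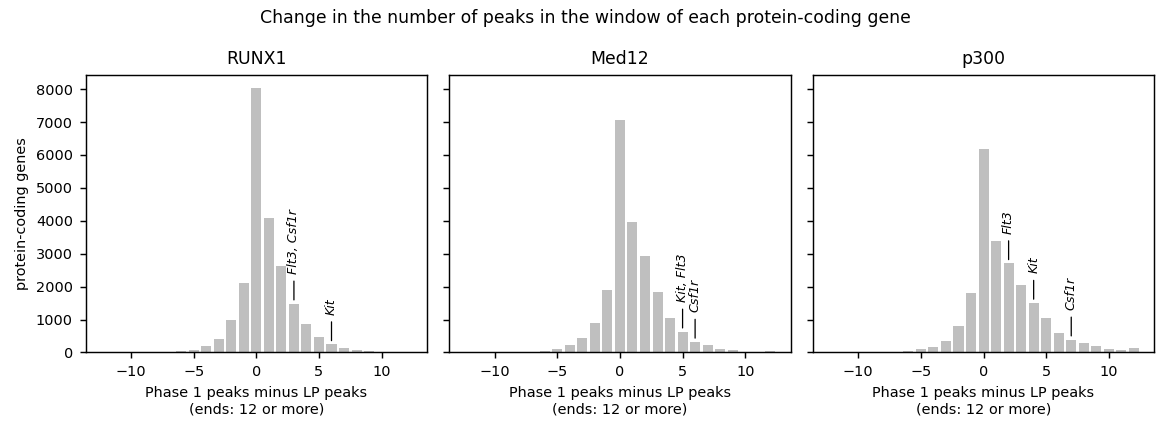
Grey bars count protein-coding genes by the number of Phase 1 peaks minus LP peaks in their windows, for RUNX1, Med12 and p300, with the end bars holding 12 or more, and italic names mark the 3 receptor genes. Kit stands at 6 for RUNX1 and Csf1r at 7 for p300, both in the right tail.

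Over the 17 lists, the genes whose windows had the peak numbers most like those of Kit were Col6a2 (Pearson r 0.98), Arhgap5 (0.96) and Plekha8 (0.95), on log2 counts standardised in each list. For Flt3 they included Ola1 and Slc25a33 (0.97 each), and for Csf1r they were Bhlha9, Bloc1s6 and Sema5b (0.95 each). Flt3 and Csf1r resembled each other (0.69) more than either resembled Kit (-0.39 and -0.05). These values describe 17 points that share cells and antibodies, and they say nothing of shared control.

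The pathway around the receptors was described by the same windows of 23 genes, some of which overlap (Stat5a with Stat5b, Pdgfrb with Csf1r). A Phase 1-specific RUNX1 peak was found for 21 of 23, beside 66.5% of all protein-coding genes, and an LP-specific one for 16 of 23, beside 50.7%. For Med12 the counts were 21 of 23 beside 71.5% in Phase 1, and 21 of 23 beside 51.6% in LP. A window with more peaks of any kind is more likely to hold a specific one, and these shares were not adjusted for that. LP RUNX1 peaks of the 23 genes ran from 0 (Pdgfra) to 19 (Flt3l), where the median protein-coding gene had 5. Among ligands, RUNX1 peaks of Csf1 numbered 4 in LP and 11 in Phase 1, and p300 peaks 8 and 22. Flt3l had 19 and 24 RUNX1 peaks, Il34 had 5 and 8, and Kitl had 2 and 3. Of the related receptors, Pdgfra had no RUNX1, Med12 or p300 peak at either stage, with 6 and 7 CTCF peaks, and Pdgfrb had 12 and 13 RUNX1 peaks. Among the 17 signalling genes, RUNX1 peaks of Socs1, a feedback inhibitor, went from 18 to 24, those of Sos1, an exchange factor for Ras, from 7 to 14, and those of the kinase Lyn from 16 to 13. Over the 23 genes, RUNX1 peaks were more numerous in Phase 1 for 16, fewer for 4 and equal for 3, beside 45.8%, 17.5% and 36.7% of all protein-coding genes. A window without RUNX1 peaks counts as equal, and 81.1% of protein-coding genes had an LP RUNX1 peak. These shares were not adjusted for peak number either.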

How the data were processed

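The 34 ChIP samples, 2 replicates in each of 17 groups, were represented by 17 peak lists, and 4 input samples had none. Per the labels and the methods of the study, the authors aligned reads to mm10 with Bowtie 1.1.1, called peaks with HOMER against a control, combined replicates by the irreproducible discovery rate and annotated them. The deposited peak score is the authors' normalized score; its scale was not stated in the file headers. The labels and the methods name different sequencers and read lengths.

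Gene bodies were taken from GENCODE M21, and RefSeq bodies gave the same numbers of peaks. Peaks that shared 1 bp or more counted as overlapping. Overlaps were tested on simulated peaks first. Deposited promoter identifiers were matched to RefSeq symbols (32699 of 32789). Python 3.11.15, pandas 2.3.3, statsmodels 0.14.6 and pysam 0.24.0 were used. No column belonged to an unmatched sample.

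Named singly were elements at a member's start, the 3 highest RUNX1 peaks per gene and stage, the 3 highest stage-specific RUNX1, Med12 and p300 peaks, every Notch1-IC element, every guide RUNX1 element, LP-specific RUNX1 peaks with CTCF, and Med12 peaks of 1 guide. Others named were chosen after their values were seen. Genes, lists and strings were chosen with earlier results of these data known. Alternatives changed the overlap rule, minimum score, window, assignment, promoters and list length. A gene and a sequence that the rules would have named are not reported here.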

Additional observations from a re-analysis of the deposited data

How the results depend on the processing

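Of 105 recalculated shares, 96 stayed within the counting interval of the share reported and 9 left it. Many of these intervals were wide, up to 0.0 to 79.3% for the RUNX1 share with sgCTCF from 1 peak. Staying within them therefore says little about how stable a share is. With peaks assigned by nearest gene at any distance, the LP-specific shares of RUNX1, Med12 and p300 and both stage-specific shares of CTCF were each 0.0%, from 8, 7, 9, 9 and 9 peaks. With a minimum score of 30 the Phase 1-specific share of p300 was 30.4%, the sgCont Med12 share absent with sgCbfb was 20.0%, and the sgCont RUNX1 share absent with sgMed12 was 100%, from 2 peaks. With lists of equal length the Phase 1-specific share of p300 was 25%. The minimum score and the equal length leave fewer peaks by their own construction. Under the nearest-gene rule, many peaks in the windows went to other genes, such as Pan3 and Pdgfrb. No value could be had for RUNX1 with sgCTCF under the minimum score or by nearest gene, since no peak was left. No paired analysis was possible because each deposited list combines both replicates and no result comes from a test. For the same reason no replicate could be left out. Depth was not used, so an unlisted peak may be an undetected one. Windows assign peaks by position and do not show which gene an element serves.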

Other observations

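Of the 72 elements around the 3 genes, 29 held RUNX1, Med12 and p300, and 15 of these held all 3 at both stages. CTCF was alone at 23 elements (2 at Kit, 11 at Flt3 and 10 at Csf1r), of which 18 were listed at both stages. Elements of CTCF together with RUNX1, Med12 and p300 numbered 5, of which 2 were at Kit, 3 at Flt3 and none at Csf1r. Med12 and p300 came without RUNX1 at 5 elements, Flt3 at +44.0, -70.9 and -92.9 kb and Csf1r at -28.5 and +6.4 kb. p300 was alone at 6 elements, 4 of them at Csf1r. In all, 15 elements rested on a single list.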
